A study of Mus musculus with 6 samples.

Results

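H3K27ac regions of adult mouse hindlimb muscle were described over the whole genome from 2 region lists, 1 for each of the 2 biological replicates of H3K27ac ChIP-seq. The members were all regions of these lists on the 19 autosomes and the X chromosome, which were 44871 regions in replicate 1 and 44972 in replicate 2, or 89843 of the 95415 regions in the 4 lists of the series. Of the 6 samples, 2 were H3K27ac, 2 were Maf and 2 were inputs. The nuclei came from gastrocnemius and quadriceps of wild-type mice aged 2 months and were fixed with formaldehyde. No other genotype, age or treatment was assayed with this antibody, so each value below is a description of 1 group with n = 2, with no test. The ChIP-seq section of the study's methods names no sort of these nuclei by cell type and refers to an earlier protocol for their isolation. If none was made, the signal pooled myofibers of several types with the other cells of the tissue, and fewer nuclei of a type and less of the mark per nucleus cannot be told apart.

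Acetylation of lysine 27 on histone H3 is placed by the acetyltransferases p300 and CBP and removed by histone deacetylases. It is found at active promoters and active enhancers and is absent from most silent genes. In skeletal muscle, long stretches of this mark cover genes that fibers use at a high level, and muscle enhancers are often bound by myogenic bHLH factors and Mef2.

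The tissue is described by 10 genes of skeletal muscle, some of fast fibers (such as Myh4 and Tnnt3) and some of fibers in general (such as Acta1 and Ryr1). These were named after their values were seen, so they are no check that could have failed. All 10 had a region within 1 kb of a transcript start in both lists, against 56.0% of all protein-coding genes. At Acta1, the skeletal actin gene, this region was 10744 bp long in replicate 1 and 11955 bp in replicate 2. It was 16087 bp and 10065 bp at Ckm, the muscle creatine kinase, and 9622 bp and 9808 bp at Myod1, the myogenic determination factor. A gene with such a region in both lists is called marked below, and the length of its longest such region is called its breadth.

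The bases just upstream of 8 starts are shown because they put marked and unmarked genes of different kinds side by side. Each run holds the 150 bases before the RefSeq start in GRCm38.p6, read 5′ to 3′ on the strand of the gene, and none of these bases lay in an annotated exon. Capitals mark matches to the motifs listed further below, on either strand. In the 5 marked genes all 150 bases lay inside a region in both lists, and in the 3 unmarked genes none did. The first 3 genes are used in skeletal muscle fibers, Acta1 in fibers of each type and Myh4 and Pvalb in fast ones.
Acta1 (chr8:123894776-123894925, minus strand): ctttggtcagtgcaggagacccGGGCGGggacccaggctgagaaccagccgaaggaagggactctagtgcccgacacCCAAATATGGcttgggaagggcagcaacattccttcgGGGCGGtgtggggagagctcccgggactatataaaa
Myh4 (chr11:67237662-67237811, plus strand): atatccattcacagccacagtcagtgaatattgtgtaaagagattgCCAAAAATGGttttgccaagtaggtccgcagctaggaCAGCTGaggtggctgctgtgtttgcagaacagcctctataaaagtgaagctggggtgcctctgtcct
Pvalb (chr15:78206401-78206550, minus strand): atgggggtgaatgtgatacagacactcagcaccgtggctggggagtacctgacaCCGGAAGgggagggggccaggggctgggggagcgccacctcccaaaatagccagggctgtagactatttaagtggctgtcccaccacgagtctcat
Rplp0 encodes a ribosomal protein and Eef1a1 a factor of translation elongation.
Rplp0 (chr5:115559317-115559466, plus strand): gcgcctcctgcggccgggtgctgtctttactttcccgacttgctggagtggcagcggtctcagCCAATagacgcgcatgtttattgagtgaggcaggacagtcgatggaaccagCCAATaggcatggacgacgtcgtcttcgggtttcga
Eef1a1 (chr9:78481725-78481874, minus strand): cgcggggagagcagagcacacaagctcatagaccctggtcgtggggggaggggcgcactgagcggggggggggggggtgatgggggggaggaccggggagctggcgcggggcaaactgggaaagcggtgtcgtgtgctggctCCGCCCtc
Myh3 encodes embryonic myosin, Alb encodes albumin of the liver, and Slc17a6 encodes a glutamate transporter of neurons. These 3 were unmarked.
Myh3 (chr11:67078150-67078299, plus strand): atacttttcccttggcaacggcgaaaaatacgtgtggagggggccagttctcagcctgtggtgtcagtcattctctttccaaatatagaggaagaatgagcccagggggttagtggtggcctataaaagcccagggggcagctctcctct
Alb (chr5:90460720-90460869, plus strand): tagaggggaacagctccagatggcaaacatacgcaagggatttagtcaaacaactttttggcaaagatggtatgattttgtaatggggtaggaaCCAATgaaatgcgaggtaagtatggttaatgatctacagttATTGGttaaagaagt
Slc17a6 (chr7:51621680-51621829, plus strand): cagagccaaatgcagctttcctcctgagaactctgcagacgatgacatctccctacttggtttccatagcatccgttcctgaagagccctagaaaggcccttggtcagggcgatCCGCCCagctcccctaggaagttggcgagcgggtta
The SRF motif, bound by serum response factor, began 73 bases before the start of Acta1 and 104 bases before that of Myh4. The E-box of Myh4 began 67 bases before its start. The run of Rplp0 held 13 CG dinucleotides and that of Myh4 held 1.

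The regions covered 91.9 Mb in replicate 1 and 94.3 Mb in replicate 2, which was 3.59% and 3.69% of the ungapped genome. The median region was 1476 bp long in replicate 1 and 1499 bp in replicate 2. The shortest regions were 501 bp, and 13.3% and 14.8% of the regions had exactly this length. The next length found was 626 bp in both lists. The long end was a small share of the lists, with 2886 and 3098 regions of 5 kb or more and 615 and 681 regions of 10 kb or more. The longest 10% of the regions held 34.3% and 34.9% of all covered bases. The longest single region was 61570 bp in replicate 1 and 75519 bp in replicate 2.

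The lists differed in their short regions and shared nearly all of their long ones. Overlap with the other list, by at least 1 base, was seen for 36469 of the 44871 regions of replicate 1 (81.3%) and for 36044 of the 44972 of replicate 2 (80.1%). Among regions of 501 bp, 33.1% of replicate 1 and 29.9% of replicate 2 overlapped the other list. The share was 92.8% and 93.0% from 1000 bp to below 2000 bp, and 99.1% in both replicates from 2000 bp to below 5000 bp. Of regions of 5 kb or more, 1 region of replicate 2 and none of replicate 1 lacked an overlap. Regions at promoters overlapped the other list in 96.1% and 95.1% of cases, and regions in introns in 75% and 72.5%. Promoter regions were also longer, so that place and length moved together here, and their parts were not separated.

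**Figure D1:**
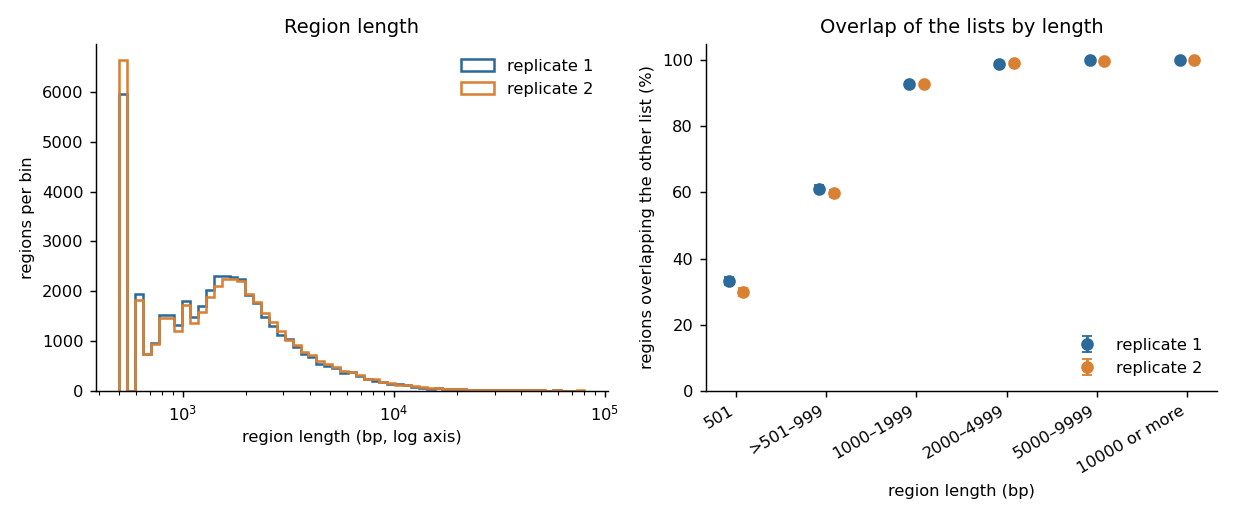
Left, the number of regions per bin of length (bp, log axis) in each replicate, with the 501 bp regions as the first peak and a broad second peak. Right, the share of regions (%) that overlapped the other list in each class of length, with exact 95% binomial intervals that cover counting error over regions only. The share rose from 33.1% and 29.9% at 501 bp to 100% in both replicates at 10 kb or more.

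Merging both lists gave 52523 regions, of which 35196 (67.0%) held a region of each list. A further 8400 came from replicate 1 alone and 8927 from replicate 2 alone. The shared regions had a median length of 1944 bp, and those of 1 list had a median of 626 bp. Counted in bases, 78 Mb was covered in both lists and 108 Mb in either, a ratio of 72.1%. Where 1 region met exactly 1 region, in 33333 cases, the starts differed by a median of 142 bp and the ends by 134 bp. In 69.2% of these pairs the longer region was at most 25% longer than the shorter one. The longest region without a counterpart was a 5201 bp region in an intron of Sept11 in replicate 2. In replicate 1 it was a 4533 bp region in an intron of Fam13c.

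Regions were concentrated at gene starts and spread through introns. A base within 1 kb of a protein-coding transcript start was found in 27.8% of the regions of replicate 1 and 27.9% of replicate 2, and these are called promoter regions. Introns held 40.4% and 40.9%, exons 3.85% and 3.91%, intergenic stretches up to 50 kb from a start 15.9% and 15.6%, and those farther away 12.1% and 11.7%. Judged by the centre alone, 23.4% of regions in each list lay within 1 kb of a start, against 2.50% of the genome. This was a ratio of 9.33 in replicate 1 and 9.36 in replicate 2. The ratio was 1.23 in replicate 1 and 1.25 in replicate 2 for introns and 0.31 and 0.30 for intergenic sequence beyond 50 kb. Of all bases within 1 kb of a start, 33.8% and 34.6% lay inside a region. Promoter regions had a median length of 2012 bp and 2088 bp, and all other regions, called distal, had 1258 bp and 1247 bp. A longer region is more likely to touch a start window. With the classes set by the centre alone, the medians were 1856 bp and 1918 bp at promoters and 1324 bp and 1319 bp elsewhere.

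**Figure D2:**
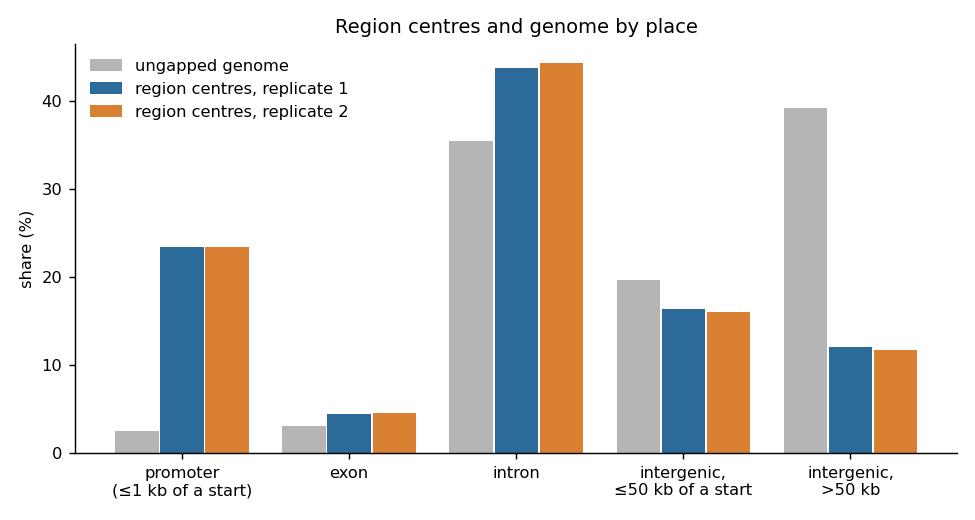
Share (%) of the ungapped genome (grey) and of region centres in replicates 1 and 2 by genomic place. Promoters held 23.4% of the centres of each list and 2.50% of the genome, and intergenic sequence beyond 50 kb held 12.1% and 11.7% of centres and 39.2% of the genome.

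The centre of the median distal region lay 24705 bp from the nearest start in replicate 1 and 24250 bp in replicate 2. By nearest start, marked genes had a mean of 2.25 and 2.27 distal regions, and genes unmarked in both lists had 0.49 and 0.47. The 3 genes with the most distal regions were named after their values were seen. Rora, a nuclear receptor gene that spans 734 kb, was nearest to 69 and 67 distal regions. Zfp36l1, which encodes an RNA-binding protein, is 5.26 kb long and was nearest to 44 and 54. Nfib, a gene for a nuclear factor I protein, was nearest to 45 and 48. A long gene or a gene with far neighbours collects more regions by this count.

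The chromosomes differed in how densely they carried the mark. Chromosome 11 had the most regions per Mb, at 28.6 and 29.2, and chromosome X the fewest, at 7.44 and 7.40. Chromosome X also had the fewest regions per protein-coding gene, at 1.28 in both replicates, while chromosome 12 had 2.90 and 2.95. Across the 20 chromosomes, the density of regions went with the density of genes (Pearson's r of 0.81 and 0.80, Spearman's rho of 0.88 in both replicates), which is a description over chromosomes that share the same libraries. The sex of the mice is not given in the labels.

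Most protein-coding genes carried the mark at a start. In both lists, a region lay within 1 kb of a start for 12123 of 21646 genes, a background of 56.0%. A further 310 genes had one in replicate 1 only and 384 in replicate 2 only, and 8829 had none. With a window of 10 kb the background was 63.3%. Genes were divided by whether a start was CpG-rich, with GC of at least 50% and an observed/expected CpG ratio of at least 0.6 in the 1 kb around it. Of the 10931 CpG-rich genes, 84.0% were marked (exact 95% binomial interval 83.3 to 84.6, counting error over genes only), and of the 10715 CpG-poor genes 27.5% were (26.6 to 28.3). The marked share rose in each step of the CpG ratio, from 7.30% of genes below 0.2 to 93.7% of genes at 1 or more. On chromosome X, 39.7% of 948 genes were marked, against 56.8% of autosomal genes.

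**Figure D3:**
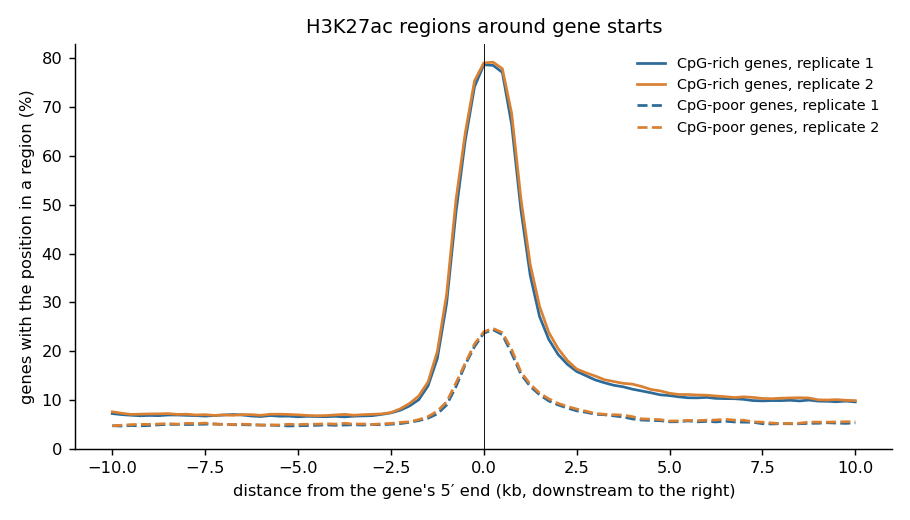
Share of genes (%) whose position at a given distance (kb) from the 5′ end lay in a region, for CpG-rich (solid) and CpG-poor (dashed) genes in replicates 1 and 2. At the 5′ end the share was 78.7% and 79.1% for CpG-rich genes and 23.7% and 24.0% for CpG-poor genes, and for CpG-rich genes it stayed higher downstream than upstream.

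Families of receptors for odours and pheromones, and keratin genes of skin and hair, were almost without the mark at their starts. Of 1133 olfactory receptor genes (Olfr), 6 were marked, as were 1 of 328 vomeronasal receptor genes, Vmn1r4, and 2 of 110 keratin genes, Krt10 and Krt80. The region at Krt80 was 24329 bp and 13015 bp long. Of 394 zinc finger genes named Zfp, 306 were marked (77.7%). Among all protein-coding genes 56.0% were marked, with 84.0% of CpG-rich and 27.5% of CpG-poor ones. The CpG class of these families was not counted, so its part in their shares was not tested. Genes whose start faced another start within 1 kb on the opposite strand were marked in 92.4% of 1520 cases, and the others in 53.3%. A single region can mark both genes of such a pair, and the CpG class of these genes was not counted. The part of either in the difference was not tested.

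Outside protein-coding genes, the mark was less common at starts. More than 5 kb from any protein-coding start, 12.3% of 4649 lincRNA genes, 7.99% of 1664 miRNA genes and 2.1% of 9019 processed pseudogenes had a region within 1 kb of the 5′ end in both lists. Some noncoding loci nevertheless carried very long regions, and those that follow were chosen after their values were seen. Neat1 and Malat1, abundant nuclear noncoding RNAs, are neighbours on chromosome 19. The region at Neat1 was 36258 bp and 36598 bp long, and the region at Malat1 was 23925 bp and 23512 bp. A merged region of 19232 bp on chromosome 2 held Mir1a-1 and Mir133a-2, 2 miRNA genes of striated muscle.

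Measured from the most upstream start they held, regions extended farther downstream than upstream. Where a region held the starts of a single gene, it reached a median of 762 bp upstream and 1177 bp downstream of this start in replicate 1 (9401 genes). In replicate 2 these were 790 bp and 1218 bp (9433 genes). The region was longer on the downstream side for 77.7% and 78.6% of these genes. Any further start of the gene in the region lies on the downstream side by this definition, and its part in the difference was not tested. The 10 genes with the longest downstream reach were Rcsd1, Smtnl2, Nfix, Pgm1, Rbfox1, Tob2, Mef2d, Capzb, Hk2 and Srl. The reach can pass the end of the gene. It was 31443 bp and 33236 bp at Tob2, a gene of 10525 bp, and 36456 bp and 44365 bp at Smtnl2, of 22550 bp. At Mef2d, of 29715 bp, it passed the end in replicate 1 only, with 36540 bp. At Rcsd1 the reach was 47006 bp and 47100 bp downstream and 1084 bp and 1233 bp upstream. At Hk2, the hexokinase of muscle, it was 28279 bp and 29618 bp downstream.

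Genes of several lists, of fibers and of other cells, carried broader regions than most marked genes. Over the 12123 marked genes the median breadth, as the mean of both lists, was 2166 bp, and 1763 of them had a breadth of 5 kb or more, a background of 14.5%. The ranks of breadth in the lists went together (Spearman's rho of 0.93 over these genes, whose values share long regions between neighbours). For 81.7% of the genes the breadths of the 2 lists were within 25% of each other, taking the shorter as the base. For 362 genes they differed by more than a factor of 2.

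All 20 genes of the fast sarcomere list were marked, and 19 of them had a breadth of 5 kb or more, with a list median of 10586 bp. Their starts were mostly CpG-poor, with 2 CpG-rich genes in the list. It also holds genes of fibers in general, such as Acta1, so its values do not stand for fast fibers alone. Pvalb is a calcium buffer and is counted in the list of excitation-contraction coupling too. Tnnt3, the fast troponin T, had a region of 37937 bp in replicate 1 and 44266 bp in replicate 2, which was the longest of the list. This region was not at Tnnt3 alone, since it also lay within 1 kb of the 5′ end of the noncoding gene Prr33. The merged region of both lists held starts of Lsp1 and Tnnt3. Tpm1, a tropomyosin gene, had 32539 bp and 25869 bp. At Myh4, which encodes the fastest myosin heavy chain of mouse limb muscle, it was 23818 bp and 20057 bp. Pvalb, the calcium buffer parvalbumin of fast fibers, had 21068 bp and 19119 bp.

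Of the 14 genes of the slow sarcomere and slow fiber list, 9 were marked, a share of 64.3% (35.1 to 87.2) whose interval holds the 56.0% of all genes. The median breadth was 2700 bp, and 2 genes had 5 kb or more. Of its 11 CpG-poor genes 6 were marked, beside 27.5% of all CpG-poor genes. No region lay within 1 kb of a start in either list at Myh7, Myh7b, Myl2, Tnnt1 or Tnni1, which encode slow myosin heavy and light chains and slow troponins T and I. Tnnt1 and Tnni1 did have a region within 10 kb. Mybpc1, the slow myosin-binding protein C, had the longest region of the list, at 9147 bp and 8051 bp. Fabp3, which carries fatty acids in the cytosol, had 8287 bp and 7337 bp. Tnnc1, the troponin C of slow and cardiac muscle, had 2897 bp and 4178 bp, and Tpm3, a tropomyosin gene, had 2375 bp and 4240 bp.

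The genes of calcium handling and of anaerobic energy supply were broad as well. All 20 genes of excitation-contraction coupling were marked, with a median breadth of 10326 bp, and 18 had 5 kb or more. Srl, a sarcoplasmic reticulum protein gene, had 28810 bp and 30958 bp. The breadth at Jph2, which ties the sarcoplasmic reticulum to the cell membrane, was 27990 bp and 24595 bp. Bin1, a gene for a protein that shapes the T-tubule membrane, had 27222 bp and 25009 bp. All 21 genes of glycolysis and creatine kinase were marked, and all 21 had 5 kb or more, with a median of 13076 bp. Pfkm, the muscle phosphofructokinase, had 42998 bp and 29563 bp. Pkm, a pyruvate kinase gene, had 23794 bp and 22758 bp, and Pygm, the muscle glycogen phosphorylase, had 19985 bp and 19298 bp. The 22 genes of oxidative metabolism were all marked too, but with a median of 3450 bp, and 5 of them had 5 kb or more. A CpG-rich start was found in 16 of these 22, in 5 of the 20 of excitation-contraction coupling and in 9 of the 21 of glycolysis. Among all protein-coding genes 56.0% were marked, with 84.0% of CpG-rich and 27.5% of CpG-poor ones. The broadest of the oxidative list were Cs, the citrate synthase, with 11122 bp and 6973 bp, and Sdhb, a subunit of complex II, with 8589 bp and 8095 bp.

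**Figure D4:**
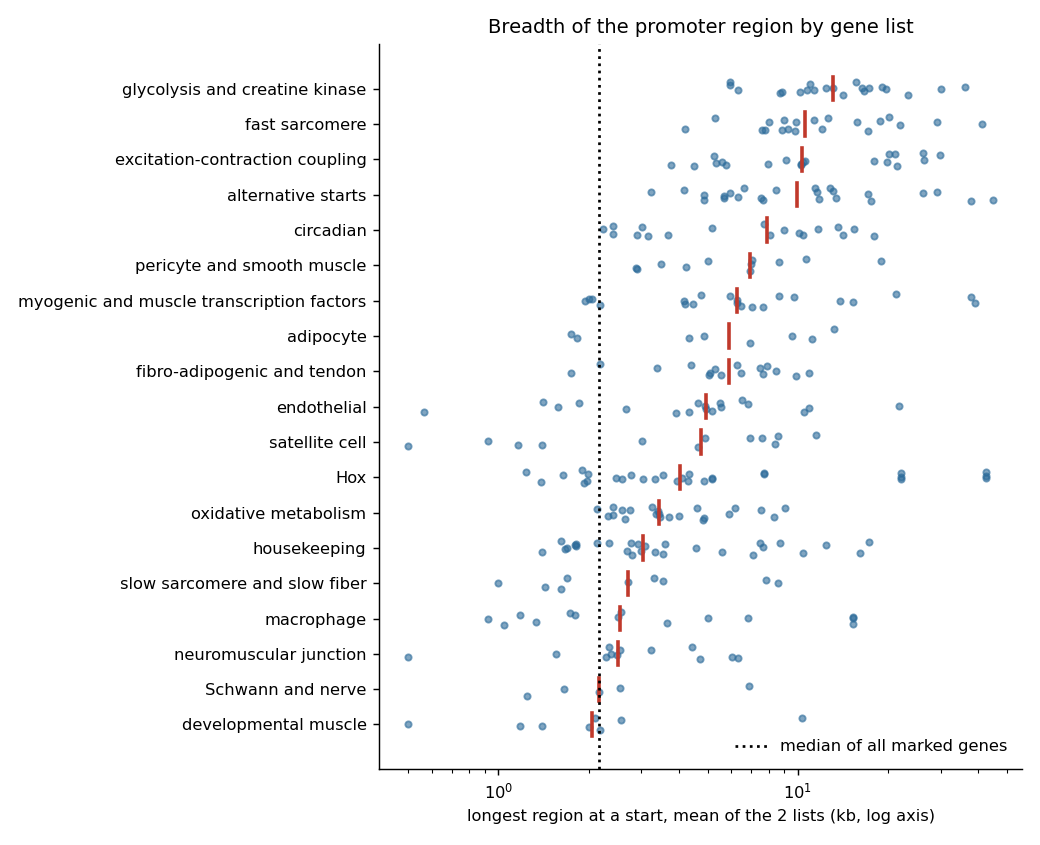
Breadth of each marked gene (kb, log axis, mean of the 2 lists) by gene list, for lists with at least 5 marked genes. Points are genes, red bars are list medians and the dotted line is the median of all 12123 marked genes, 2166 bp; the list of glycolysis and creatine kinase had the highest median, 13076 bp.

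Transcription factors of muscle were marked in 21 of 22 cases, beside 56.0% of all genes, with a median breadth of 6267 bp. Of the 22, 16 had a CpG-rich start and all 16 were marked, beside 84.0% of all CpG-rich genes. Of the 6 CpG-poor ones 5 were marked. Mef2d, a Mef2 factor, had 46789 bp and 31313 bp, and Nfix, a nuclear factor I protein of fetal and later muscle, had 37269 bp and 38318 bp. Tbx15, a T-box factor, had 16805 bp and 13797 bp. Myf5 had a region in replicate 2 only, of 928 bp. Of 19 genes of developing muscle, 8 were marked, or 42.1% (20.3 to 66.5), an interval that holds the 56.0% of all genes. By class, 4 of its 8 CpG-rich and 4 of its 11 CpG-poor genes were marked, beside 84.0% and 27.5% of all genes of these classes. Myh3 and Myh8, the embryonic and perinatal myosins, and Chrng and Chrnd, acetylcholine receptor subunits, had no region at a start in either list. Mymx, which encodes a fusion protein of myoblasts, was the broadest of this list at 10237 bp and 10455 bp. Myog, the differentiation factor myogenin, had 2117 bp and 2247 bp. Actc1, with 501 bp, and Igf2, with 648 bp, had a region in replicate 1 only.

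At the neuromuscular junction, 12 of 14 genes were marked, beside 56.0% of all genes, with a median breadth of 2515 bp. A CpG-rich start, a class marked in 84.0% of all its genes, was found in 7 of these 14. Dok7, an adaptor in the clustering of acetylcholine receptors, had 6781 bp and 5803 bp. Musk, the kinase it acts on, had 4386 bp and 5068 bp. Chrnd and Colq were unmarked. Of 14 satellite cell genes, 6 of them with a CpG-rich start, 12 were marked. Itga7, an integrin of the myogenic lineage, was the broadest of them at 11489 bp and 11505 bp, and Calcr, the calcitonin receptor of quiescent satellite cells, was unmarked. Several genes of this list are also used by fibers or vessels, so the list does not stand for satellite cells alone.

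The mark, found at a start in both lists for 56.0% of all protein-coding genes, was also found at genes of cells other than fibers. All 18 endothelial genes were marked, as were 16 of 18 fibro-adipogenic and tendon genes, 11 of 12 pericyte and smooth muscle genes and 14 of 16 macrophage genes. Their median breadths were 4920 bp, 5892 bp, 6944 bp and 2538 bp in this order, and 8, 12, 7 and 5 of the marked genes had 5 kb or more. The first 3 medians were above those of the slow fiber and oxidative lists. Egfl7, which endothelial cells secrete, had a region of 21612 bp and 21885 bp. Pdgfrb, the receptor of pericytes, had 19390 bp and 18413 bp. Dcn, the matrix protein decorin, had 10002 bp and 11804 bp. A single region of 15680 bp and 14801 bp held the starts of C1qa, C1qb and C1qc, complement genes of macrophages. None of the 16 macrophage genes was CpG-rich, and 27.5% of all CpG-poor genes were marked. Mpeg1, Mkx and Cnn1 were the genes of these lists with no region at a start in either list.

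Lists of lymphocytes, liver, neurons and heart had few marked genes, and those of Schwann cells and adipocytes were closer to the share of all genes, 56.0%. Of 14 lymphocyte genes 1 was marked, Foxp3, with 1317 bp and 1389 bp, while Cd3d and Lck had a region in replicate 1 only. Of these 14, 12 were CpG-poor, a class marked in 27.5% of all its genes. The interval of the list's marked share, 0.18 to 33.9, holds this value. Of 20 liver genes 1 was marked, Trf, the transferrin gene, with 2073 bp and 2050 bp. All 20 were CpG-poor, and the interval of their marked share, 0.13 to 24.9, lay below the 27.5% of all CpG-poor genes. Of 16 neuron genes 2 were marked, Camk2a, with 11914 bp and 12188 bp, and Map2, with 501 bp in both. A CpG-rich start was found in 10 neuron genes, and 1 of these, Map2, was marked, beside 84.0% of all CpG-rich genes. Among 16 cardiac genes 4 were marked, which were Tbx5, Kcnj2, Myl4 and Hand2. By class these were 2 of the 7 CpG-rich and 2 of the 9 CpG-poor genes of the list, beside 84.0% and 27.5% of all genes. Myh6, Nppa, Nppb and Tnni3, genes of heart muscle, had no region at a start. Of 12 Schwann and nerve genes 5 were marked, which were the 5 with a CpG-rich start, and 3 more (Sox10, Cdh19 and Erbb3) had a region in replicate 2 only. Of 14 adipocyte genes 8 were marked (57.1%, with a median breadth of 5903 bp), among them the 3 with a CpG-rich start, and 2 more (Plin1 and Cidec, both of lipid droplets) had a region in replicate 1 only, of 3054 bp and 2220 bp. The other 4 adipocyte genes, Adipoq, Adrb3, Ucp1 and Retn, had no region at a start in either list. Plin4 was the broadest of that list, at 13361 bp and 13073 bp. Whether its marked genes stand for adipocytes or for fibers was not tested. The part of cell composition in the genes with a region in 1 replicate only was not tested.

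**Figure D5:**
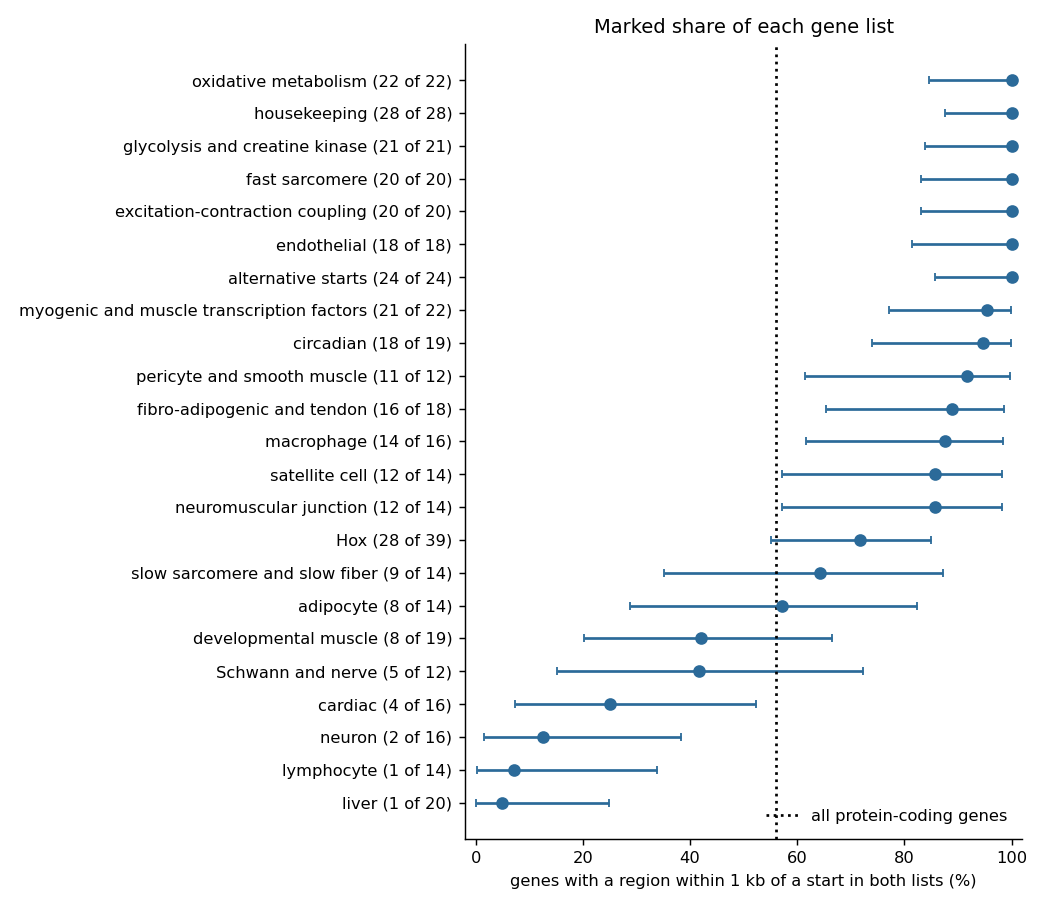
Share of genes (%) with a region within 1 kb of a start in both lists, for each of 23 gene lists, with exact 95% binomial intervals that cover counting error over genes only. The dotted line is the share of all protein-coding genes, 56.0%; 7 lists were marked in full, and the liver, lymphocyte and neuron lists had 1 of 20, 1 of 14 and 2 of 16 genes marked.

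Genes of a housekeeping list, used in most cells, were marked in 28 of 28 cases, beside 56.0% of all genes, with a median breadth of 3039 bp. Of these 28, 23 had a CpG-rich start, a class marked in 84.0% of all its genes. Gpi1, a glycolytic isomerase gene, had 10425 bp and 24155 bp, and Actb, the cytoskeletal actin, had 17324 bp and 14801 bp. Of 19 circadian genes 18 were marked, with a median of 7890 bp, and Npas2 was the 1 gene without a region. A CpG-rich start was found in 16 of the 19, and 15 of these were marked. Bhlhe41, a repressor of the clock, had 17909 bp and 18136 bp, and Nr1d1, the repressor Rev-erbα, had 14558 bp and 16200 bp. The Hox genes, which set position along the body axis and the limb, were marked in 28 of 39 cases. These were 22 of the 28 with a CpG-rich start and 6 of the 11 with a CpG-poor one. Hoxc9, Hoxc10 and Hoxc11 lay under a single region of 42587 bp and 42660 bp, which also held the start of the noncoding RNA Hotair. Hoxa7, Hoxa9 and Hoxa10 shared one of 19229 bp and 25120 bp. At the 5′ ends of the clusters, Hoxb13, Hoxc12, Hoxc13, Hoxd11, Hoxd12 and Hoxd13 had no region at a start in either list, while Hoxa13 had 1831 bp and 1983 bp. The other unmarked Hox genes were Hoxb1, Hoxb3, Hoxd1 and Hoxd4, and Hoxb9 had a region in replicate 1 only.

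Some genes carried the mark at 1 start and not at another. Among 3548 genes with starts more than 10 kb apart, 1959 (55.2%) had both marked and unmarked groups of starts. In 1432 genes the most upstream group was the only one marked, and in 269 the most upstream group was unmarked and an inner one was marked. Annotated starts include those of shortened transcripts, so an unmarked start need not be a promoter in any tissue. In a list of 24 muscle genes with alternative starts, all of them marked at some start, 5 had a marked and an unmarked group more than 10 kb apart. At Ank1, an ankyrin gene, the innermost group of starts, 164186 bp from the first, was marked in both lists, and the first group had a region in 1 list. Ank3 had 3 marked groups of 7, and its first was unmarked. Nos1, the neuronal nitric oxide synthase that fibers also use, was marked at its first group and at neither of the other 2. Mef2c and Tead1 each had 1 unmarked group of starts, of 5 and of 4.

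The longest merged region lay within a gene body and held no annotated start of a protein-coding gene. It spanned 75980 bp of Zbtb16 (chr9:48705252-48781231, GRCm38), with its centre 92703 bp from the nearest start, and 74648 bp and 75519 bp of it were covered. Exons of protein-coding genes made up 185 bp of it, in 2 stretches, and the rest was intron. Zbtb16 encodes the zinc finger factor PLZF. The next were a region of 61995 bp over Jph2, one of 60519 bp over Speg and Des, which encode a kinase of the sarcomere and the filament protein desmin, and one of 48334 bp over Rcsd1. The other 11 of the 15 longest were nearest to Mef2d, Tnnt3, Smtnl2, Mbnl1, Asb8 (the centre lay in Pfkm), Hoxc10, Ahdc1, Mylk4, Ppara, Rbfox1 and Capzb. All 15 were covered in both lists. A start of a protein-coding gene lay in 13 of them, and the other two were those of Zbtb16 and of the stretch near Ppara. That stretch, 41690 bp long and 63607 bp from the nearest protein-coding start, overlapped the noncoding gene Lncppara.

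Regions were close to one another. The median gap between neighbours was 11405 bp in replicate 1 and 10894 bp in replicate 2, and 52.3% and 53.2% of gaps were at most 12500 bp. Joining regions across gaps of up to 12500 bp gave 21426 and 21062 clusters, of which 58.3% and 58.6% held 1 region. Clusters of 5 or more regions numbered 1920 and 1997 and held 32.0% and 34.2% of all regions. Of the single regions 36.8% and 37.6% were at promoters, against 21.1% and 21% of the regions in clusters of 5 or more. The cluster with the most covered bases was again at Zbtb16, with 118 kb and 124 kb covered in a span of 144 kb. Tns1, which encodes a protein of cell adhesions, was second with 96.3 kb and 109 kb. The others of the first 10 held Smtnl2, Cuedc1 with Srsf1, Mbnl1, Nfix, Capzb, Aff1, Nr4a1 with Acvr1b, and Tef with Tob2. The clusters with the most shared regions, 20 each, held Hexim1 with Plcd3 and Dusp1 with Ergic1.

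Over windows of 1 Mb the lists gave nearly the same map. Of 2645 windows, 444 (16.8%) had no region in either list, and the median window had 12 and 11. The counts of the lists went together across windows (Spearman's rho of 0.99), and each went with the number of genes (0.70 in both replicates), over windows that share the same libraries. The densest window, at 32 to 33 Mb of chromosome 2, had 99 and 100 regions, and 33 of its 35 protein-coding genes were marked. The longest stretch without a region in either list was 12.2 Mb on chromosome X and held 49 protein-coding genes. Stretches of 8.48 Mb on chromosome 14, around Klhl1 and Pcdh9, and 8.34 Mb on chromosome 6, around Lrrtm4 and Ctnna2, followed. Repeated sequence, to which reads can be hard to assign, made up 17.3% and 17.4% of covered bases and 34.3% of the genome.

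Distal regions held several motifs more often than their surroundings and others less often. Matches on either strand were counted in the central 500 bp of each shared distal region (23265 windows), in windows 5 kb to either side that touched no region, and in tiles over the genome. The motifs were the E-boxes CAGCTG and CACCTG, MEF3 (TCAGGTTT), Tead (CATTCCA), AP-1 (TGACTCA), ERR (TCAAGGTCA), GR (GNACANNNTGTNC), NFI (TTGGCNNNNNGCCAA), KLF (CCACCC), the GC box (GGGCGG), the CCAAT box (CCAAT), ETS (CCGGAAG), NRF1 (GCGCATGCG), YY1 (AAGATGGCG), Mef2 and SRF. The patterns of Mef2 and SRF can overlap in runs of A and T. The E-box CAGCTG, a site of myogenic bHLH factors, occurred in 33.7% of distal windows (33.1 to 34.3), 20.4% of flanks, 17.1% of genome tiles and 26.1% of windows around all starts. CACCTG went the other way, with 27% of distal windows and 31.5% of flanks. AP-1 was in 13.0%, 8.57% and 7.65% of distal windows, flanks and tiles, and in 6.35% around all starts. The GR motif, an inverted repeat bound by the glucocorticoid receptor and its relatives, was in 1.86%, 0.76% and 0.83%, and in 0.70% around all starts. Mef2 was in 10.9% of distal windows, above the 8.51% of flanks but below the 11.3% of tiles, with 3.64% around all starts. SRF, another motif of muscle genes, was in 2.62% of distal windows and 2.57% of flanks. The ratio to the flanks was also above that of CAGCTG for motifs common at starts, with the GC box in 11.8% of distal windows and 5.73% of flanks and ETS in 3.26% and 1.57%. The windows differed in base composition, with a GC content of 47.5% in distal windows, 44.5% in flanks and 41.8% in tiles, and the part of composition was not tested.

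At shared promoter regions, the GC box was in 55.6% of windows and ETS in 16.2%, beside 51.6% and 13.9% of windows around all starts. AP-1 was in 5.50% and CAGCTG in 25.3% of these promoter windows. SRF was in 1.64% of them and in 1.89% around all starts. MEF3 was in 3.12% of distal windows and 2.51% of flanks, Tead in 8.75% and 7.83%, and ERR in 1.42% and 1.53%. NFI was in 0.077% and 0.044%. KLF was in 35.6% and 28.9%, and the CCAAT box in 44.9% and 50.9%. Around all starts these 6 motifs were in 1.97%, 5.53%, 0.69%, 0.028%, 47.2% and 46.1%, in that order. NRF1 and YY1 were in 2.26% and 2.98% of promoter windows and in 2.27% and 2.68% of windows around all starts.

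The long region of Zbtb16 was searched with the same letters after its length was known. It held 6 matches to the GR motif, of which 2 overlapped each other, and 32 to CAGCTG. This was 0.79 GR matches per 10 kb, while the other 14 of the 15 longest regions had between 0 and 0.43. For CAGCTG the rate was 4.21 per 10 kb, the second lowest of the 15, in which it ran from 3.97 to 7.44. For Mef2 it was 0.79, with 3 of the 15 lower, and the others ran from 0.21 to 3.36. Of the matches, 3 are shown in capitals, each with its surroundings of 100 bases in all, from the plus strand of GRCm38, and all 3 windows lay inside a region in both lists. A match is a description of letters and does not show binding.
Zbtb16 intron (chr9:48723661-48723760): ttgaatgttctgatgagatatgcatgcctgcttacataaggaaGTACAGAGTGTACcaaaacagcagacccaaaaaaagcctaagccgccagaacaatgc
Zbtb16 intron (chr9:48737559-48737658): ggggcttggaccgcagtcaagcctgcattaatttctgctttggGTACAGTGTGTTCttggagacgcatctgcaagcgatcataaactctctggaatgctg
Zbtb16 intron (chr9:48775782-48775881): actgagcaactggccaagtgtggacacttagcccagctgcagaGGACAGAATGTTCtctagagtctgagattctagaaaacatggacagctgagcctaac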

How the data were processed

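H3K27ac ChIP-seq was made by the authors from nuclei of gastrocnemius and quadriceps. The submitters' processing notes name bcl2fastq 2.17, Bowtie2 2.3.2, Picard 2.10.3, FastQC and HOMER, and the study's methods name Trim Galore and STAR beside Bowtie2. The caller's settings, its threshold and its use of the input are not given in the sources used here. The deposited lists hold the chromosome, start, end, name, score and strand of each region, and the deposited score column is 1 in every line, so no height or depth was available. Precision is limited by the number of regions and of replicates, and exact binomial intervals (95%) cover counting error only. In replicates 1 and 2, 16 and 15 regions outside chromosomes 1 to 19 and X were left out, and the Maf lists were read only for the total. The 2 samples formed 1 group by their titles.

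The positions lay within the chromosome ends of GRCm38. Genes came from GENCODE M21 (54050 starts of 21646 protein-coding gene names) and sequence from RefSeq GRCm38.p6. A start, a gene and a cluster were defined as given beside the results, with a window of 1 kb, stitching within 12500 bp and an overlap of 1 base. Of 433 entries in 23 gene lists, 432 matched a gene name, and 414 of these were distinct. The regions described, the gene lists and the motifs were chosen with earlier results of these data known. Genes were named by a rule: for each list, up to 4 marked genes with the longest regions and up to 4 unmarked ones in list order; genes at the longest regions, at the leading clusters, at the longest downstream reach, at split starts and at the longest gaps. Named beyond the rule, after their values were seen, were the tissue markers, the genes with printed starts, Tnni1, Actc1, Igf2, Lck, Erbb3, the further Hox genes, and those so described in the text. Not all of the rule's genes are described, and 1 gene that the rule names is not reported here. The measures were tested on simulated intervals, and 11 of 11 were recovered. Python 3.11.15 with numpy 2.4.6, SciPy 1.17.1 and matplotlib 3.10.9 was used. Alternatives changed the promoter window, the starts used, the shortest region kept, the joining of regions and the replicates.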

Additional observations from a re-analysis of the deposited data

Results flagged for a closer look

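Regions outside chromosomes 1 to 19 and X entered no comparison. There were 16 in replicate 1 and 15 in replicate 2, above the limit of 3 that a count of 0 allows. Of these, 8 and 6 lay on chromosome Y and 8 and 9 on unplaced scaffolds.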

How the results depend on the processing

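No paired analysis was possible because the 2 H3K27ac samples form 1 group and no result comes from a test. Of 152 alternative values for 44 results, 93 stayed within the replicate SD, the binomial interval or 1.5 times the count, and 59 moved. The 93 include every value from 1 replicate that was judged by the replicate SD, and such a value could not move. The alternatives gave single values, so whether a direction turned was not examined. The planned join across gaps of up to 500 bp moved none of its results, but the shortest gap in each list was 499 bp, so this join could change little. A join of up to 1 kb, chosen after seeing the data, moved the median length from 1487.5 to 1552.5 bp and the covered share from 3.64% to 3.72%. With regions of at least 1000 bp only, these were 1953 bp and 3.27%, 89.1% of regions overlapped the other list in place of 80.7%, and 79.3% of CpG-rich and 24.0% of CpG-poor genes were marked. A reciprocal overlap of 50% left 70.9% of regions overlapping. The promoter share of regions, 27.8%, was 27.2% with a window of 500 bp, 29.8% with 2 kb, 23.4% by the centre, 23.5% with 5′ ends only and 32.6% with places from all genes. The share beyond 50 kb, 11.9%, was 12.3% with 5′ ends only and 2.89% with all genes, since noncoding genes then bound the distance. The marked share of CpG-poor genes was 26.5% with 500 bp, 29.2% with 2 kb, 25.6% with 5′ ends only, 31.1% in either list, 29.1% to 29.5% in 1 list and 42.2% with the stricter definition of CpG-rich. For CpG-rich genes it was 80.5% with 5′ ends only, 86.8% in either list, 85.2% to 85.5% in 1 list and 87.9% with the stricter definition. Clusters of 5 or more regions, 1958.5 as the mean of the lists, numbered 706.5 when stitched within 5 kb and 1140 without promoter regions, and held 9.77% and 24.8% of regions, or 56.8% within 25 kb, in place of 33.1%. With a 10 kb window, 4 liver and 4 lymphocyte genes were marked in place of 1 each. With 5′ ends only, 3 Schwann and nerve genes (5) and 1 neuron gene (2) were. In the central 200 bp of the distal regions, 16% held CAGCTG and 0.79% the GR motif. A narrower window holds fewer matches, and flanks and tiles were counted at 500 bp only. These 2 values thus cannot be set against the flanks or tiles and do not show whether the difference from them changed. With 1 list CAGCTG was in 32.6% to 33% of 500 bp windows. Without replicate 1, AP-1 was in 12.2% and Mef2 in 10.2%, and AP-1 also moved without replicate 2. Leaving out either replicate kept the other results within their limits, but those judged by the replicate SD could not leave them. Each of 2 values lies less than 1 SD from their mean, so these values say nothing about robustness.

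The depth of the libraries is not given by the lists, so a gene without a region was not detectable as marked, which does not show that the mark is absent. The order of each list followed region length (Spearman's rho of -0.93 and -0.94) and was not used as strength.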
